A study of Mus musculus with 14 samples.

Results

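CIS, the suppressors of cytokine signalling (SOCS) and the Pim kinases are products of genes that cytokine signalling switches on. The genes described here are Cish, Socs1, Socs2, Socs3, Socs5, Socs6, Socs7, Pim1, Pim2 and Pim3, chosen by name as feedback and target genes of JAK-STAT signalling. They are 10 of the 50686 genes counted, and all 10 passed the filter on low counts that left 14512 genes for testing. RNA was sequenced from mouse HPC-LSK cells, which are haematopoietic progenitor lines of C57BL/6N background, named for the LSK surface type of early marrow progenitors (Kit and Sca-1 present, lineage markers absent). The 14 libraries form 4 groups, namely 4 from untransformed Cdk6 wild-type (WT) lines, 3 from untransformed Cdk6 knockout (KO) lines, 3 from WT lines transformed with BCR-ABL p210 and 4 from KO lines transformed with BCR-ABL p210. Untransformed lines grew with interleukin-6 (IL-6) at 12.5 ng/ml and 2% stem cell factor (SCF), and p210 lines grew without either cytokine, so the oncogene and the medium change together and cannot be told apart. How the Cdk6 allele was made, which promoter drives the oncogene and how old the donor mice were is not stated. The p210 descriptions end in the letters SCF, and what these stand for is not stated.

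Cytokine receptors of this class activate JAK kinases, which phosphorylate STAT factors, and STAT dimers then switch on the genes of their own inhibitors. The SOCS proteins and CIS (the product of Cish) bind phosphorylated receptors or JAKs and, through their SOCS box, recruit an elongin-cullin ubiquitin ligase. SOCS1 and SOCS3 can also block JAK catalysis directly. Cish and Socs2 are classic targets of STAT5, the STAT that BCR-ABL is known to activate, whereas Socs3 is the classic target of STAT3 downstream of IL-6 and binds the shared IL-6 receptor chain gp130. Socs1 and the Pim genes respond to both STATs and, for Socs1, to interferon. The Pim kinases are serine/threonine survival kinases that are active once made, so that their amount depends largely on transcript and protein turnover. Socs5, Socs6 and Socs7 are here classed with neither STAT.

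RefSeq promoter windows (GRCm38.p6, 250 bases before to 50 after the transcript start) matched 6 of the 10 genes in 7 windows. Stretches of 3 are shown because these were the members whose windows held a match, with Cish classed here with STAT5, Socs3 with STAT3 and Socs1 with both. Capitals mark matches of TTCNNNGAA, the palindrome that STAT dimers are known to bind and that reads the same on both strands, in Cish (chr9:107296654-107296683, plus strand) and Socs3 (chr11:117969496-117969525, minus strand), and matches of GAAA, any 2 bases, GAAA, the core of the interferon-stimulated element searched on both strands, in Socs1 (chr16:10785537-10785786, minus strand).
Cish: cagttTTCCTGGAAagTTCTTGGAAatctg
Socs3: cagccTTCTTAGAAgggaggggggggaaag
Socs1: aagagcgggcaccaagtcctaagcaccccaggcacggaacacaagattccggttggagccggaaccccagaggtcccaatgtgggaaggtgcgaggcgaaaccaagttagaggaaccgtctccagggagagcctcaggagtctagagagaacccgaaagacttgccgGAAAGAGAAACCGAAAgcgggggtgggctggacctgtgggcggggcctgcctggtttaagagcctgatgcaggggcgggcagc

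The Cish window held 2 matches of TTCNNNGAA, which begin at bases +1 and +12 counted from the RefSeq start and lie in an exon of the GENCODE annotation. The Socs3 window held 1 match, which begins at base -154 and lies in an intron of that annotation. At least 1 match was present in 8.3% of all 32851 promoter windows, and 2 or more were present in 0.457%. In Socs1, 2 overlapping matches of that element begin at bases -83 and -77, upstream of the gene, and 3.44% of all windows held that motif. Neither motif was found in the windows of Pim1, Pim2 and Pim3. A match is a run of letters and not a measured binding site.

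Library totals ran from 20270348 to 50303271 counts. Between 18105 and 20689 genes were detected, and mitochondrial genes took 1.48% to 2.13% of the counts. Levels of a gene across libraries are given in CPM, its count scaled to a common (TMM-adjusted) library size. Comparisons between genes use TPM, which also accounts for gene length. That length is the annotated exon length of the gene (6419 bp for Cish, 9531 bp for Socs2 and 2891 bp for Socs3). Folds between genes therefore depend on it. All 6 LSK markers had counts in every group, but their summed level was 1360 to 2160 CPM in WT and 1130 to 1580 CPM in KO untransformed lines against 670 to 832 CPM in WT and 417 to 1060 CPM in KO p210 lines. Markers of neutrophils and monocytes summed to 269 to 9260 CPM in WT and 21100 to 29500 CPM in KO untransformed lines. In WT and KO p210 lines they summed to 1070 to 4730 and 5840 to 14000 CPM. Mean S100a8 and Itgam were higher in p210 than in untransformed lines of both genotypes, and mean Lyz2 in WT lines only. Means of the other neutrophil and monocyte markers were lower in p210 lines. Mast cell and basophil markers summed to 1210 to 5940, 2570 to 2860, 3920 to 13100 and 6940 to 10200 CPM in the order WT untransformed, KO untransformed, WT p210, KO p210. In that order megakaryocyte markers summed to 2180 to 5850, 975 to 1580, 1540 to 2670 and 1230 to 1840 CPM, erythroid markers to 16.3 to 51.8, 6.33 to 11, 0.812 to 10 and 0.32 to 2.56 CPM, and stromal and endothelial markers to 188 to 471, 381 to 456, 555 to 764 and 597 to 828 CPM. Lymphoid markers summed to 4.92 to 23.9, 85.7 to 133, 19.4 to 86.2 and 43.5 to 66.3 CPM, nearly all of it from Ighm and Il7r, with Cd3e and Rag1 at 0 in every library and Cd79a at or near 0 in each. In untransformed lines the neutrophil and monocyte, megakaryocyte, erythroid and lymphoid sums separated KO from WT libraries without overlap. Between states, the LSK, erythroid and stromal sums separated p210 from untransformed libraries in both genotypes without overlap. In KO lines alone the neutrophil and monocyte, mast cell and basophil, and lymphoid sums did so too. The part of these markers in the results that follow was not tested. Most of the stromal and endothelial sum came from Pecam1, with means of 253 and 617 CPM in WT and 350 and 659 CPM in KO untransformed and p210 lines. Pdgfrb went the other way, from 85.6 to 49.1 CPM in WT and from 64.4 to 32.0 CPM in KO lines. Cdh5, Col1a1 and Cxcl12 had group means of at most 0.749 CPM. In p210 lines the mast cell and basophil sum came mostly from Cpa3 and Mcpt8, with means of 4240 and 3410 CPM in WT. In KO p210 lines these means were 6210 and 2510 CPM. The untransformed means were 913 and 51.7 CPM in WT and 1590 and 305 CPM in KO lines. Prss34 also rose in both genotypes. Fcer1a, Cma1 and Tpsb2 had lower means in p210 lines of both genotypes, and Ms4a2 in WT lines only. Cdk6 measured 970 to 1310 CPM in WT and 236 to 271 CPM in KO untransformed lines. In p210 lines it measured 576 to 606 CPM in WT and 326, 578, 245 and 163 CPM in KO replicates 1 to 4, so that the library labelled KO p210 replicate 2 lay within the WT range. WT untransformed replicate 3 also stood apart, with the lowest neutrophil and monocyte sum of all 14 libraries (269 CPM), and results are given with and without these 2 libraries where they matter. The descriptions carry 2 codes, here called the first (replicates 1 and 2 of each group) and the second (the other replicates), with a letter A or B. Nothing states that replicates came from separate animals, so the p-values measure the spread between these libraries, and in bulk RNA fewer cells of a type and less RNA per cell cannot be told apart.

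The first question was which feedback genes differed between p210 and untransformed lines. The STAT5-type genes Cish and Socs2, and with them Socs1, were far higher in p210 lines of both genotypes, by 9.84-fold to 38.2-fold. Socs3, the STAT3-type gene, was lower in both. Pim1 was moderately higher in both, and the remaining genes changed in 1 genotype or in neither. In WT lines 7 of 10 genes passed the threshold, 4 higher and 3 lower, where 39.5% of all tested genes were called (21.9% higher and 17.6% lower). In KO lines 6 of 10 passed, 5 higher and 1 lower, where 37.2% were called (19.2% higher and 18% lower). Without regard to the test, libraries of the 2 states did not overlap for 7 of the 10 in WT lines (4 higher and 3 lower, where 45% of all genes, 23.5% higher and 21.6% lower, did not) and for 5 of the 10 in KO lines (4 higher and 1 lower, where 46.1%, 22.6% higher and 23.5% lower, did not). Without both libraries that stood apart the counts were 7 of 10 in WT and 5 of 10 in KO lines, where Pim3 lost its call, beside 33.4% and 34% of all genes. The median log2 change over the 10 genes was 0.20 in WT and 0.63 in KO lines, beside 0.02 and -0.01 over all genes tested. With library size scaling alone, which moved the median log2 change of all genes to -0.097 in WT and -0.118 in KO lines, the split of all calls went from 3173 higher and 2554 lower to 2516 and 3471 in WT lines and from 2790 and 2605 to 2093 and 3466 in KO lines, and the directions of the called genes of the 10 did not turn. All adjusted p-values are from edgeR's quasi-likelihood test with Benjamini-Hochberg adjustment over 14512 genes, and a call is an adjusted p under 0.05.

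**Figure D1:**
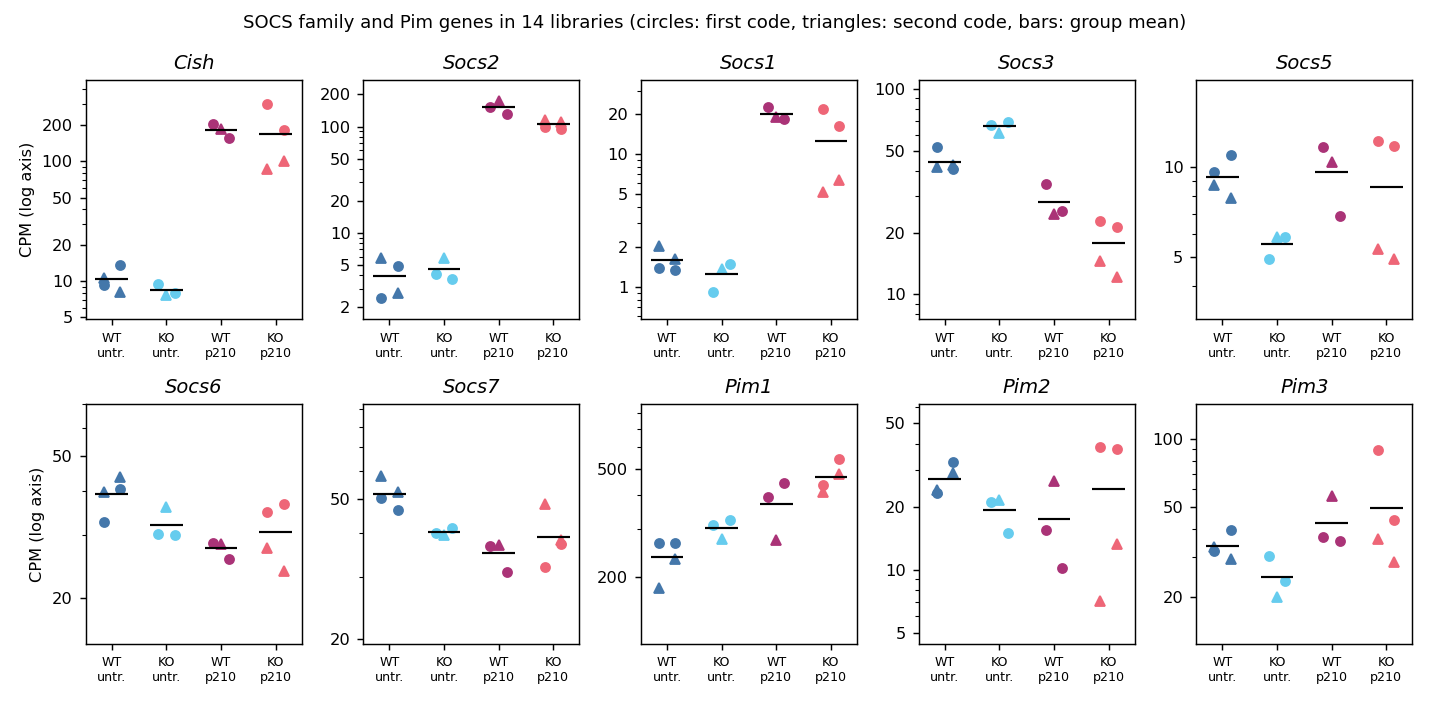
Level of each of the 10 genes in 14 libraries (CPM, log axis) by group; circles are libraries of the first code, triangles those of the second code, and bars are group means. All p210 libraries lie above all untransformed libraries for Cish, Socs1 and Socs2, and below all untransformed libraries for Socs3.

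Cish, whose product competes for STAT5 docking sites on receptors, measured 9.30, 13.7, 10.7 and 8.20 CPM in WT untransformed replicates 1 to 4 and 9.50, 7.92 and 7.68 CPM in KO untransformed replicates 1 to 3. It measured 207, 156 and 185 CPM in WT p210 and 301, 184, 85.9 and 100 CPM in KO p210 lines. Every p210 library lay above every untransformed one, and the KO p210 libraries spread most, with both of the first code above both of the second. The change was 4.12 ± 0.39 on the log2 scale (SE) in WT lines, or 17.4-fold (edgeR adjusted p = 2.54e-05), and 4.33 ± 0.43 in KO lines, or 20.1-fold (edgeR adjusted p = 4.75e-05). Within the first code alone the log2 changes were 3.96 in WT and 4.8 in KO lines, and within the second code they were 4.26 and 3.60, with edgeR adjusted p from 0.00196 to 0.0414.

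Socs2, the inhibitor best known for restraining growth hormone signalling, was at 2.47, 4.89, 5.77 and 2.71 CPM in WT untransformed and at 4.14, 3.72 and 5.82 CPM in KO untransformed lines. In p210 lines it was at 154, 132 and 172 CPM in WT and at 98.4, 94.8, 116 and 111 CPM in KO. Its estimated change was the largest of the 10 genes in both genotypes, although within the first code alone Cish was ahead in KO lines (4.8 against 4.62). The log2 change was 5.26 ± 0.29 in WT (38.2-fold, edgeR adjusted p = 1.05e-06) and 4.52 ± 0.31 in KO lines (22.9-fold, edgeR adjusted p = 5.8e-06). Unlike Cish, it varied little among the KO p210 libraries, whose mean was 105 ± 10.3 CPM (SD, n = 4) against 168 ± 98.9 for Cish.

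Socs1, an inhibitor of JAK kinases induced by STAT3 and STAT5, rested on 20 to 74 counts per untransformed library. Its levels were 1.39, 1.34, 2.03 and 1.61 CPM in WT untransformed, 0.909, 1.49 and 1.36 CPM in KO untransformed, 22.6, 18.4 and 19.0 CPM in WT p210 and 21.9, 16.2, 5.18 and 6.32 CPM in KO p210 lines. All p210 libraries exceeded all untransformed ones, and both second-code KO libraries were the lowest of the p210 libraries. The log2 change was 3.65 ± 0.45 in WT (12.5-fold, edgeR adjusted p = 0.000118) and 3.30 ± 0.49 in KO lines (9.84-fold, edgeR adjusted p = 0.000416). Within the second code alone the KO change was 2.08 for Socs1 and 4.29 for Socs2 and was no longer called (edgeR adjusted p = 0.0862 and 0.0703), where 30 genes in all were called higher and 43 lower.

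Socs3, the inhibitor that binds gp130 and limits IL-6 signalling, went the other way. It measured 51.9, 40.8, 41.5 and 42.8 CPM in WT untransformed and 66.7, 69.3 and 61.2 CPM in KO untransformed lines, against 34.6, 25.5 and 24.7 CPM in WT p210 and 22.9, 21.4, 14.5 and 12.1 CPM in KO p210 lines. The 4 groups did not overlap, in the order KO untransformed, WT untransformed, WT p210, KO p210. How many of all genes have 4 groups without overlap was not counted. In WT lines it fell by 0.65 ± 0.21 on the log2 scale, or 1.56-fold lower (edgeR adjusted p = 0.0268), and in KO lines it fell by 1.89 ± 0.20, or 3.71-fold lower (edgeR adjusted p = 6.75e-05). The WT call was lost without WT p210 replicate 2 (edgeR adjusted p = 0.0894), WT p210 replicate 3 (0.0878) or WT untransformed replicate 1 (0.0564). The KO call was kept in each of the 27 alternatives run.

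**Figure D2:**
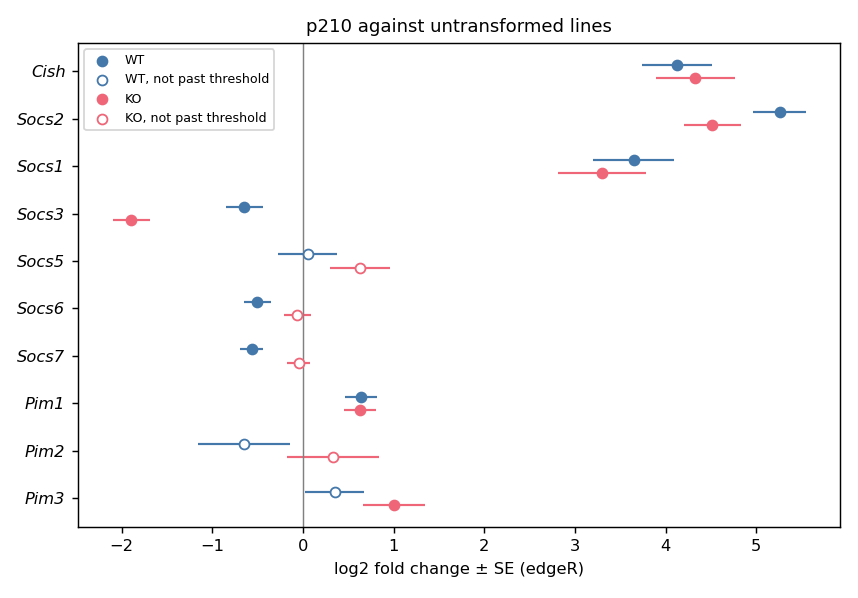
log2 fold change of p210 against untransformed lines (edgeR estimate, bars are SE) for the 10 genes in WT and KO lines; filled points passed an adjusted p of 0.05. Cish, Socs2 and Socs1 lie beyond 3 in both genotypes, whereas Socs3 lies at -0.65 in WT and -1.89 in KO lines.

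Pim1, a target of STAT3 and STAT5 and the most abundant of the 10 genes, measured 267, 267, 181 and 233 CPM in WT untransformed, 309, 323 and 275 CPM in KO untransformed, 392, 443 and 273 CPM in WT p210 and 436, 541, 409 and 480 CPM in KO p210 lines. The p210 libraries lay above the untransformed libraries within each genotype. The log2 change was 0.64 ± 0.17 in WT (1.56-fold, edgeR adjusted p = 0.0115) and 0.63 ± 0.18 in KO lines (1.54-fold, edgeR adjusted p = 0.0151). The call was lost in WT lines without WT p210 replicate 2 (edgeR adjusted p = 0.0596) and in KO lines without KO untransformed replicate 3 (0.06). Within the second code alone it was lost in both (0.296 in WT and 0.166 in KO lines). The WT call was also lost with only the groups compared (0.0537) and with a term for libraries merged from 2 runs (0.0511).

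The other Pim genes were less uniform. Pim3 measured 30.2, 23.6 and 19.9 CPM in KO untransformed and 88.7, 43.7, 36.1 and 28.6 CPM in KO p210 lines, ranges that overlap, with a log2 change of 1.00 ± 0.34 (2.01-fold, edgeR adjusted p = 0.0362). Without KO p210 replicate 1, the highest library, the change was 0.56 and not called (edgeR adjusted p = 0.072), and the call was also lost without KO untransformed replicate 2 (0.0977) or replicate 3 (0.125) and without both libraries that stood apart (0.0589). In WT lines Pim3 went from 33.5 ± 4.32 (SD, n = 4) to 42.6 ± 11.6 CPM (SD, n = 3) and was not called (0.35, edgeR adjusted p = 0.426). Pim2 was called in neither genotype (-0.65 with adjusted p = 0.337 in WT and 0.33 with adjusted p = 0.642 in KO lines). Its KO p210 libraries were at 38.7 and 37.8 CPM in the first code and at 7.07 and 13.3 CPM in the second, on either side of the KO untransformed range of 15 to 21.5 CPM.

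Socs6 and Socs7, members that bind receptor tyrosine kinases and adaptor proteins rather than acting as classic cytokine feedback, fell by less than 1.5-fold in WT lines and were not called in KO lines. Socs7 went from 51.7 ± 4.75 (SD, n = 4) to 35.0 ± 3.39 CPM (SD, n = 3), a log2 change of -0.56 ± 0.13 (edgeR adjusted p = 0.00439). Socs6 went from 39.1 ± 4.67 (SD, n = 4) to 27.6 ± 1.53 CPM (SD, n = 3), a log2 change of -0.50 ± 0.15 (edgeR adjusted p = 0.0188). Its call was lost without WT p210 replicate 2 (0.0654) and with a term for libraries merged from 2 runs (0.129). In KO lines the changes were -0.05 for Socs7 and -0.06 for Socs6, and the difference between genotypes was 0.52 ± 0.18 and 0.44, with edgeR adjusted p of 0.272 and 0.368. Socs5, an inhibitor reported to act on interleukin-4 and epidermal growth factor receptors, was called in neither genotype (0.05 in WT with adjusted p = 0.917, 0.63 in KO lines with adjusted p = 0.151). Its KO p210 libraries were at 12.3 and 11.8 CPM in the first code and at 5.3 and 4.95 CPM in the second.

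Reading code and letter as the name of a line, 6 lines were measured in both states, and the change could be followed within each. Cish was higher in p210 in 6 of 6 lines, by 3.50 to 4.98 on the log2 scale, Socs1 by 2.17 to 4.50 and Socs2 by 4.24 to 5.93. Socs3 was lower in 6 of 6, with changes from -0.747 to -0.585 in the 3 WT lines and from -2.33 to -1.54 in the 3 KO lines. Pim1 was higher in 6 of 6 lines, by 0.50 to 0.81, and Socs7 was lower in 6 of 6, with changes from -0.64 to -0.04. For Cish, Socs1, Socs2, Socs3 and Pim1 the states did not overlap in either genotype. Any pairing of libraries within a genotype would therefore give 6 of 6 for these genes. The share of all genes with 1 direction in 6 of 6 lines was not counted. Directions were mixed for Socs5 (4 higher, 2 lower), Socs6 (2 higher, 4 lower), Pim2 (3 higher, 3 lower) and Pim3 (5 higher, 1 lower).

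On the TPM scale the balance between STAT5-type and STAT3-type transcripts inverted between states. In untransformed lines Socs3 exceeded Cish by 6.62-fold to 12.4-fold in WT and by 15.6-fold to 19.4-fold in KO libraries. In p210 lines Cish exceeded Socs3 by 2.70-fold to 3.38-fold in WT and by 2.68-fold to 5.91-fold in KO libraries. The same held for Socs2, which was exceeded by Socs3 23.7-fold to 69.3-fold in WT and 34.7-fold to 61.4-fold in KO untransformed libraries, and which exceeded Socs3 by 1.35-fold to 2.11-fold in WT and 1.30-fold to 2.79-fold in KO p210 libraries. The inversion was seen in each of the 14 libraries, including those that stood apart, and combines the separate changes of these genes given above.

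**Figure D3:**
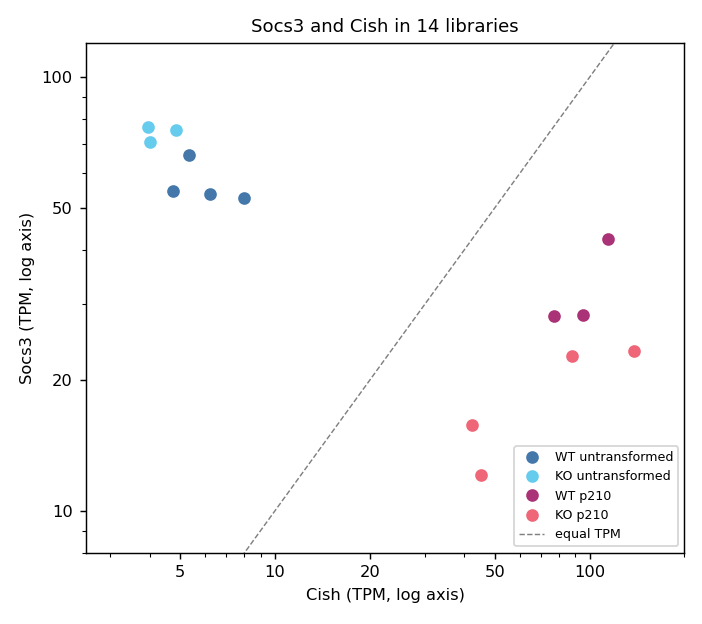
Socs3 against Cish in 14 libraries (TPM, both axes logarithmic), coloured by group, with a dashed line of equal TPM. The 7 untransformed libraries lie above the line and the 7 p210 libraries below it.

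In WT untransformed lines Pim1 came first by mean level (333 ± 56.2 TPM, SD, n = 4), followed by Socs3 (56.7 ± 6.23) and Pim3 (51.3 ± 6.85), which overlapped, and then Pim2 (36.1), Socs7 (26.4) and Socs6 (17.6) without overlap between neighbours. Socs5 (7.87), Cish (6.06) and Socs1 (4.85) overlapped with their neighbours, and Socs2 was lowest at 1.54 TPM. In WT p210 lines Pim1 was again first (468 ± 108 TPM, SD, n = 3), Cish had moved to the second place (95.6 ± 18.5), and Pim3 (58.9), Socs1 (55.1) and Socs2 (53.7) overlapped behind it. Socs3 came sixth at 32.9 TPM, above Pim2 (20.9), Socs7 (16.1), Socs6 (11.2) and Socs5 (7.42). KO lines had Pim1 and Socs3 first and second when untransformed (375 and 74.5 TPM) and Pim1 and Cish when transformed (532 and 78.3 TPM), where Cish overlapped with Pim3 (61.2 TPM).

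The second question was whether loss of Cdk6 changed these genes. None of the 10 passed the threshold between KO and WT in either state. Cdk6 itself was called lower in untransformed KO lines (-2.14, edgeR adjusted p = 0.00573) but not in KO p210 lines (-0.86, 0.147). Without the library labelled KO p210 replicate 2 it was called there (-1.28, 0.0143). In untransformed lines 15.2% of all tested genes were called (8.73% higher and 6.5% lower), and 3 of the 10 had an unadjusted edgeR p under 0.05, while DESeq2 called 2 (Socs3 and Socs7), where it called 24.1% of all genes, and limma-voom 1 (Socs3), where it called 19.7%. In p210 lines 4.44% were called (0.882% higher and 3.56% lower), and 1 of the 10 had an unadjusted edgeR p under 0.05, while DESeq2 called 1 (Socs3), with 10% of all genes, and limma-voom 0, with 2.83%. None of these member shares exceeded the share of all genes called by the same tool. With library size scaling the untransformed calls went from 1267 higher and 944 lower to 915 and 1657, at a median of -0.118 over all genes. Leaving out the library labelled KO p210 replicate 2, alone or together with WT untransformed replicate 3, gave a count of 0 in p210 lines as well. In these 2 settings 2.1% and 1.92% of all genes were called. The median log2 difference over the 10 genes was -0.34 in untransformed and 0.02 in p210 lines, beside -0.016 and -0.001 over all genes. KO and WT libraries did not overlap for 5 of the 10 in untransformed lines (2 higher and 3 lower, against 39.7% of all genes, 20.8% higher and 18.9% lower) and for 2 of the 10 in p210 lines (both lower, against 13.3%, 5.64% higher and 7.7% lower).

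Socs3 was the gene with the clearest genotype pattern, and its direction differed between states. In untransformed lines KO libraries (61.2 to 69.3 CPM) all lay above WT libraries (40.8 to 51.9 CPM), a log2 difference of 0.57 ± 0.20 (edgeR unadjusted p = 0.0151, adjusted p = 0.0735). In p210 lines KO libraries (12.1 to 22.9 CPM) all lay below WT libraries (24.7 to 34.6 CPM), a log2 difference of -0.67 ± 0.20 (edgeR unadjusted p = 0.00618, adjusted p = 0.0852). The difference between the 2 genotype effects was -1.25 ± 0.29 (edgeR unadjusted p = 0.000952, adjusted p = 0.141), and DESeq2 called it (-1.24, adjusted p = 0.00483) among 413 genes, or 2.85% of those tested. Over all genes edgeR called 5 for that difference, or 0.0345%, of which none was among the 10. Without the library labelled KO p210 replicate 2 the p210 difference was -0.78 (edgeR adjusted p = 0.093). Within the first code the genotype differences were 0.54 and -0.44 in the 2 states, and within the second code 0.51 and -0.90, none called. The summed neutrophil and monocyte markers were higher in KO than in WT libraries in both states, without overlap, the megakaryocyte, erythroid and lymphoid sums also separated the genotypes in untransformed lines, and their part in the Socs3 values was not tested.

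**Figure D4:**
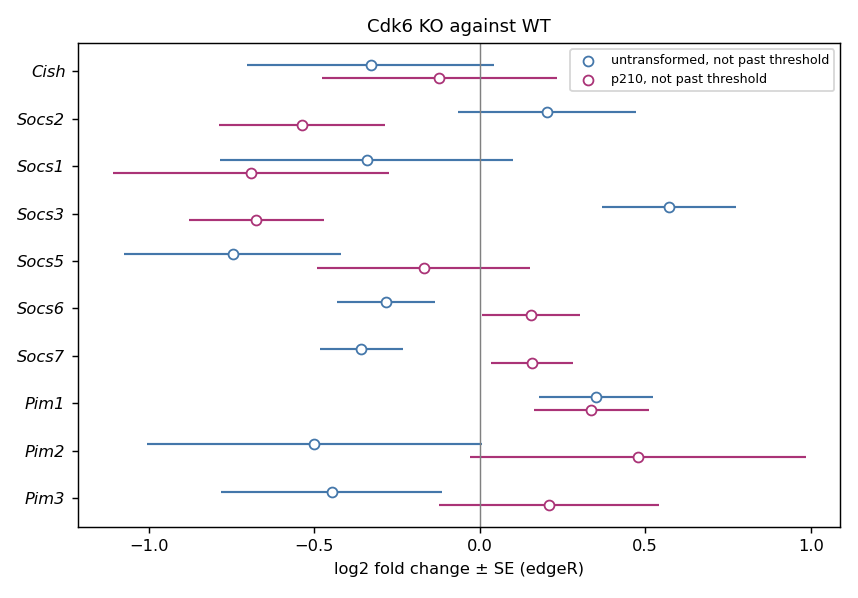
log2 fold change of Cdk6 KO against WT lines (edgeR estimate, bars are SE) for the 10 genes, untransformed and p210 lines apart. No gene passed an adjusted p of 0.05, and Socs3 lies at 0.57 in untransformed and -0.67 in p210 lines.

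For the STAT5-type genes the genotype differences were smaller than their p210 changes and not called. Cish differed by -0.33 (edgeR adjusted p = 0.577) in untransformed and by -0.12 (0.894) in p210 lines, and Socs2 by 0.20 (0.642) and -0.54 ± 0.25 (0.26). The Socs2 libraries of KO p210 lines (94.8 to 116 CPM) all lay below those of WT p210 lines (132 to 172 CPM). Socs1 differed by -0.34 (0.633) and -0.69 ± 0.42 (0.392). The spread among KO p210 libraries was wide for Cish and Socs1, and the estimate for Cish was 0.42 within the first code and -0.999 within the second.

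Among the other genes, Socs7 libraries of KO untransformed lines (39.4 to 41.4 CPM) lay below those of WT untransformed lines (46.5 to 57.9 CPM), a log2 difference of -0.36 ± 0.13 (edgeR adjusted p = 0.0719). It was called with upper quartile scaling (-0.41, 0.0447) and with library size scaling (-0.46, 0.0394). Socs5 was at 4.95 to 5.86 CPM in KO and 7.88 to 11 CPM in WT untransformed libraries, a log2 difference of -0.75 ± 0.33 (edgeR adjusted p = 0.137). Pim1 differed by 0.35 in untransformed and 0.34 in p210 lines (edgeR adjusted p = 0.179 and 0.31), and its KO libraries lay above all WT libraries in the untransformed state. Pim2 (-0.50 and 0.48), Pim3 (-0.45 and 0.21) and Socs6 (-0.28 and 0.16) were not called in either state (edgeR adjusted p from 0.206 to 0.787).

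The KO p210 group fell into 2 pairs of libraries by code, and many of the 10 genes followed that split. For 7 of the 10 both first-code libraries exceeded both second-code libraries, for Socs2 and Socs7 the order was opposite, and Pim1 overlapped. The ratio of the first-code to the second-code mean was 3.75 for Pim2, 3.32 for Socs1, 2.61 for Cish, 2.35 for Socs5, 2.05 for Pim3, 1.67 for Socs3 and 1.39 for Socs6. Of all tested genes 41.4% did not overlap between these pairs. The code is a name in the descriptions, and the library labelled KO p210 replicate 2 is 1 of the 2 first-code libraries. Summed erythroid markers also stood higher in the first code (2.56 and 1.31 CPM) than in the second (0.32 and 0.819 CPM). Stromal and endothelial markers did too (828 and 739 against 597 and 600 CPM). Summed mast cell and basophil markers went the other way, with 9780 and 6940 CPM in the first code and 10100 and 10200 CPM in the second. The other marker sums overlapped between the codes, and the part of the markers in the split was not tested. The erythroid sums were low, since 1 count was about 0.03 to 0.05 CPM in these libraries. Hbb-bs and Car1 had no count there, and Hba-a1 ran from 0 to 1.83 CPM. The stromal and endothelial sum was mostly Pecam1 (569 to 764 CPM). In WT untransformed lines 4 of the 10 separated by code, 2 in each direction, where 56.4% of all genes did.

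The rest of the pathway was described from lists of 121 distinct genes, 5 of which stand in more than 1 list. The p210 counts of these lists stand beside the 39.5% (21.9% higher, 17.6% lower) of all genes called in WT and the 37.2% (19.2% higher, 18% lower) called in KO lines. The JAK and STAT genes themselves (11 tested) were called higher for 4 and lower for 4 in WT p210 lines, and higher for 1 and lower for 4 in KO p210 lines. Jak3, the kinase of the common gamma chain, fell, with log2 changes of -1.70 ± 0.14 in WT and -1.83 ± 0.13 in KO lines (edgeR adjusted p = 9.58e-06 and 6.29e-06). Jak2, the kinase of the erythropoietin and interleukin-3 receptors, was higher by 0.81 and 0.93 (edgeR adjusted p = 0.000881 and 0.00057). The transcript of Stat5a fell in both genotypes, with log2 changes of -0.85 in WT and -0.45 in KO lines (edgeR adjusted p = 0.000325 and 0.0129), and so did that of Stat3, with -0.39 and -0.35 (0.0309 and 0.0474). Stat2, an interferon pathway factor, rose in WT lines (1.05, edgeR adjusted p = 0.000548) and was at 0.21 without a call in KO lines (0.364). Transcript levels do not measure STAT phosphorylation.

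Of 30 receptor genes 26 were tested, and 7 were called higher and 8 lower in WT, 4 higher and 11 lower in KO p210 lines. Csf2rb, the shared beta chain of the interleukin-3 and GM-CSF receptors, went from 220 ± 60.1 CPM (SD, n = 4) to 1360 ± 383 CPM (SD, n = 3) in WT lines, a log2 change of 2.63 ± 0.28 (edgeR adjusted p = 4.74e-05), and rose by 1.35 in KO lines (0.00318). Il10ra, the ligand-binding chain of the interleukin-10 receptor, rose by 2.26 and 1.25 (edgeR adjusted p = 3.93e-05 and 0.00182). Kit, the receptor of the SCF in the medium of untransformed lines and one of the markers of the LSK surface type, fell, with log2 changes of -3.25 in WT and -3.04 in KO lines (edgeR adjusted p = 2.99e-05 and 3.31e-05). The 2 chains of the IL-6 receptor are named here because IL-6 was in the medium. Il6ra fell, with log2 changes of -1.003 in WT and -1.74 in KO lines (edgeR adjusted p = 0.0124 and 0.000507), and Il6st, the gene of gp130, went from 53.2 ± 15.5 to 18.5 ± 13.1 CPM in WT lines without a call (0.133) and from 79.9 ± 20.1 to 1.83 ± 1.79 CPM in KO lines (edgeR adjusted p = 0.000601).

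Of 20 cytokine genes 11 were tested, and 7 were called higher in p210 lines of each genotype, with 1 lower in WT and 2 lower in KO lines. Il6 itself went from 5.57 ± 3.59 CPM (SD, n = 4) to 67.7 ± 51.6 CPM (SD, n = 3) in WT lines, a log2 change of 3.60 ± 0.68 (edgeR adjusted p = 0.00158), and rose by 3.57 ± 0.74 in KO lines (0.00322). Lif, another ligand of gp130 complexes, rose by 5.24 and 5.72 (edgeR adjusted p = 7.71e-05 and 0.000127), and Flt3l, the ligand of FLT3, by 0.93 and 1.41 (0.00947 and 0.00132). Tslp, thymic stromal lymphopoietin, fell by 4.56 in KO lines (edgeR adjusted p = 0.00155) and was at 0.14 in WT lines (0.892). Its level was low, at 1.73 ± 0.701 and 1.88 ± 1.6 CPM (SD) in WT untransformed and p210 lines. In KO lines it was at 2.29 ± 0.621 and 0.09 ± 0.102 CPM (SD). The SDs of Il6 were large beside its means in p210 lines, and no genotype difference was called for it.

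Other inhibitors of the pathway (14 tested) were called higher for 4 and lower for 2 in WT, and higher for 3 and lower for 1 in KO p210 lines. Pias4 and Pias3, SUMO ligases that act on STATs, rose by 0.76 and 0.39 in WT and by 0.77 and 0.41 in KO lines (edgeR adjusted p from 0.000219 to 0.00868). Dusp6, a phosphatase of ERK, rose by 0.87 and 0.84 (edgeR adjusted p = 0.00996 and 0.0142). Grb10, an adaptor that restrains receptor kinases, fell, with log2 changes of -3.38 in WT and -7.60 in KO lines (edgeR adjusted p = 0.0253 and 0.000759). Its level was 75.9 ± 78.7 CPM (SD, n = 4) in WT untransformed and 0.505 ± 0.562 CPM (SD, n = 4) in KO p210 lines. The 7 partners of the SOCS box were called higher for 1 and lower for 3 in WT, and higher for 2 and lower for 1 in KO lines. Among them Cul5, the cullin of the SOCS ligase, rose by 0.46 and 0.63 (edgeR adjusted p = 0.0102 and 0.00208), its RING partner Rnf7 fell (-0.49 and -0.40; 0.00053 and 0.00192), Arih2 fell by 0.55 in WT lines (0.000895), and Cul2 rose by 0.44 in KO lines (0.000526). None of these exceeded 2-fold.

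Further genes known as STAT5 targets (13 tested) were called higher for 5 and lower for 1 in p210 lines of each genotype. Ccnd2, cyclin D2, rose by 1.11 in WT and 0.91 in KO lines (edgeR adjusted p = 0.000198 and 0.000892), and Bcl2l1, the gene of the survival protein BCL-XL, by 0.68 and 1.03 (0.00776 and 0.000989). Tnfsf11, the gene of RANKL, went from 0.00686 to 13 ± 9.18 CPM (SD, n = 3) in WT lines and was at 3.24 ± 4.01 CPM (SD, n = 4) in KO p210 lines against 0 in all KO untransformed libraries (edgeR adjusted p = 0.00123 and 0.00655). Bcl6, which STAT5 is known to repress, fell by 1.70 in WT lines (edgeR adjusted p = 0.00579) and changed by -0.67 without a call in KO lines (0.177). Genes known as STAT3 targets (17 of 18 tested) were called higher for 5 and lower for 2 in WT, and higher for 1 and lower for 3 in KO p210 lines. Bcl3, a nuclear cofactor of NF-kappaB, fell, with -3.11 and -2.31 (edgeR adjusted p = 0.000521 and 0.00191), and Saa3, an acute phase protein, did too, with -4.15 and -5.03 (0.0355 and 0.00948). Saa3 was at 33.7 ± 38.7 CPM (SD, n = 4) in WT untransformed lines. Il1rn and Cebpb rose in WT lines by 3.48 and 1.91 (edgeR adjusted p = 0.00689 and 0.0105), so the STAT3 list did not move as Socs3 did throughout. Il1rn was at 103 ± 115 CPM (SD, n = 3) in WT p210 lines. The median log2 change of the STAT5 list was 1.11 in WT and 0.75 in KO lines, and that of the STAT3 list 0.43 and -0.22.

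Transcripts of Pim kinase substrates (13 tested) were called higher for 3 and lower for 4 in WT, and higher for 3 and lower for 3 in KO p210 lines. Cdkn1a, the gene of the cell cycle inhibitor p21, went from 131 ± 27.7 CPM (SD, n = 4) to 445 ± 7.23 CPM (SD, n = 3) in WT lines (log2 change 1.77, edgeR adjusted p = 0.000247) and rose by 1.6 in KO lines (0.00074). Foxo1 fell, with -0.84 and -0.95 (edgeR adjusted p = 0.00104 and 0.000508), Map3k5 rose by 0.57 and 0.75 (0.00497 and 0.00128), and Eif4b fell by 0.31 in WT lines (0.00954). Pim kinases act on the proteins, which were not measured.

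Between genotypes, 9 of the 26 receptor genes were called higher and none lower in untransformed KO lines, while 0 were higher and 3 lower in p210 lines. The counts of this and the other lists stand beside 8.73% of all genes called higher and 6.5% lower in untransformed lines, and 0.882% higher and 3.56% lower in p210 lines. Il6ra was higher in untransformed KO lines by 1.66 ± 0.26 (edgeR adjusted p = 0.00573) and Ifnar1, a chain of the interferon alpha receptor, by 0.84 ± 0.14 (0.00656). Of the 17 STAT3 targets 5 were higher and none lower in untransformed KO lines, among them Il4ra by 0.97 and Fos by 2.04 (edgeR adjusted p = 0.0112 and 0.0191), and none was called in p210 lines. Of the 13 STAT5 targets none was called in either state. Of the 11 cytokine genes 1 was higher in untransformed KO lines, Clcf1 (2.25, edgeR adjusted p = 0.0103), and 1 was lower in KO p210 lines, Tslp (-4.29, 0.015), at the low levels given above. Of the 13 Pim substrates 2 were lower in untransformed KO lines, Cdc25c (-0.74, edgeR adjusted p = 0.0244) and Foxo3 (-0.23, 0.0468). Of the 11 JAK and STAT genes 3 were higher and 1 lower in untransformed KO lines, led by Stat6 (0.72, edgeR adjusted p = 0.00698) and Stat5a (-0.66, 0.00907). Of the 14 other inhibitors 4 were higher in untransformed and 2 in p210 KO lines. Ptpn1, a phosphatase of JAK2, was higher by 0.57 and 0.65 (edgeR adjusted p = 0.0121 and 0.0115) and Cbl, a ubiquitin ligase, by 0.44 and 0.43 (0.0165 and 0.0336) in both states. The neutrophil and monocyte, megakaryocyte, erythroid and lymphoid markers moved with genotype in the untransformed state, as given above, and their part in these counts was not tested. Some receptor genes are also markers, namely Il7r (lymphoid), Epor (erythroid), and Kit and Flt3 (LSK). None of these was among the 9 called higher. Epor was 1 of the 3 called lower in KO p210 lines (-3.60, edgeR adjusted p = 0.0405), at low means of 0.0828 CPM in KO and 1.06 CPM in WT. Il6st, the gene of gp130, was another (-3.37, edgeR adjusted p = 0.0359). It was at 1.83 ± 1.79 CPM (SD) in KO and 18.5 ± 13.1 CPM (SD) in WT p210 lines. No gene of these lists was called for the difference between the 2 genotype effects.

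Genes with profiles most like those of Cish, Socs2, Socs3 and Pim1 were found by the root mean square distance of log2 CPM, centred over the 14 libraries, among 9853 genes with a mean of at least 5 CPM. Nearest to Cish were Epb41l4b (distance 0.511), Socs1 (0.578) and Cd200r4 (0.615). Nearest to Socs2 were Cdkn2b (0.467), Tox (0.503) and Rab19 (0.557). Socs3 was closest to Parp14 (0.313), Kdelc2 (0.316) and Xxylt1 (0.32), and Pim1 to Cep19 (0.139), Slc25a38 (0.145) and Sumf2 (0.16). Parp14 had the same order of group means as Socs3, with 70.7 CPM in KO and 42.3 CPM in WT untransformed lines and 32.0 CPM in WT and 22.8 CPM in KO p210 lines. Distances are smaller for genes that vary less, so they rank neighbours of 1 gene and do not compare genes.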

How the data were processed

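RNA (RNeasy) went into SENSE mRNA-Seq libraries with single-end reads of 50 bp, per the labels' protocols. Trimmomatic, STAR and the mouse build GRCm38/mm10 are named in the submitters' processing notes without versions. The authors counted reads per gene with featureCounts 1.5.1, reverse-stranded, on the GENCODE M13 annotation, per the file headers, and deposited raw counts and TPM for each library. The deposited TPM were recomputed from counts and lengths with a largest difference of 0.049. 6 of the 14 libraries merged 2 runs, namely WT untransformed replicates 2 to 4, KO untransformed replicate 3 and KO p210 replicates 2 and 4. No WT p210 library was merged from 2 runs. Symbols were found for 50376 of 50686 gene identifiers.

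Counts were fitted with edgeR 4.0.16 in R 4.3.3 (filterByExpr by group, TMM, quasi-likelihood test, Benjamini-Hochberg over 14512 genes, threshold 0.05), with 1 mean per group over all 14 libraries. Alternatives were DESeq2 1.42.0, limma-voom 3.58.1, other scalings, no filter, replicate blocks, single codes, a term for merged runs and leaving out libraries. The fit was tested on simulated data. The 10 genes and the pathway lists were chosen with earlier results of these data known. From each list the up to 4 genes with the smallest adjusted p over the p210 comparisons and up to 2 over the genotype comparisons are named, except 1 gene that is not reported here. Stat3, Il6st and Il6ra in the p210 comparisons, and Il6st, Il7r, Epor, Kit and Flt3 between genotypes, are named outside that rule, after their values were seen. Differences are edgeR log2 estimates. Socs2, Socs5, Socs6 and Socs7 have no promoter printed.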

Additional observations from a re-analysis of the deposited data

Results flagged for a closer look

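Socs3 drew attention because every untransformed KO library lay above every untransformed WT library while every KO p210 library lay below every WT p210 library. Of all genes, 20.8% lay higher in KO than in WT untransformed libraries without overlap, and 7.7% lay lower in p210 libraries. The share of genes with both was not counted, so how unusual the pattern is was not tested. The difference between the 2 genotype effects was -1.25 on the log2 scale (edgeR unadjusted p = 0.000952, adjusted p = 0.141), and over its alternatives it ranged from -1.41 to -0.99 with adjusted p from 0.00483 (DESeq2, which called 2.85% of all genes) to 0.505. It was -1.35 without the library labelled KO p210 replicate 2 (edgeR adjusted p = 0.213) and -1.32 without both libraries that stood apart (0.321). The 20 groups of 4 libraries examined for 1 library far from the others gave none for the 10 genes.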

How the results depend on the processing

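Genes called of the 10, between KO and WT untransformed lines, numbered 0 (15.2% of all genes) and became 2 with DESeq2 (24.1%). They became 1 with limma-voom (19.7%), upper quartile scaling (16.8%) or library size scaling (17.7%), and 3 with only the groups compared (24.4%). With 1 library left out they numbered 0 to 1. The share of all genes then ran from 1.2% (without KO untransformed replicate 2) to 18.2% (without WT untransformed replicate 1). Between KO and WT p210 lines 0 (4.44%) became 1 with DESeq2 (10%) or in the first code alone (4.6%). With 1 library left out it was 0 to 1 (1 without KO p210 replicate 1, 5.03%). The lowest share of all genes there was 1.92% (without WT p210 replicate 1). For p210 in WT lines 7 (39.5%) became 8 in the first code alone (26.2%) and 3 in the second code alone (10%). It was as low as 4 with 1 library left out (without WT p210 replicate 2, 32.4%). With the term for merged runs it was 5 (25.2%), where Pim1 (edgeR adjusted p = 0.0511) and Socs6 (0.129) lost their calls. For p210 in KO lines 6 (37.2%) became 8 in the first code alone (29.4%) and 2 in the second code alone (0.467%). For the interaction 0 (0.0345%) became 1 with DESeq2 (2.85%). The cause was not tested; the second code alone has fewer libraries. Cish kept its p210 calls in all 27 alternatives in both genotypes, and Socs1 and Socs2 in WT lines. Pim3 in KO lines lost its call in 9 of 27, Socs6 in WT lines in 5, and Socs3 and Pim1 in WT lines in 4 each.

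The same code and letter was read as a replicate block. Deviations of same-line libraries correlated at 0.163, 0.114, 0.123, 0.062, 0.08 and 0.021 over 14512 genes, not all above 0.1, so pairing is not settled, although 5 of the 6 exceeded the correlation with every other line of the same genotype. With the cell line as block 6 and 6 of the 10 genes were called in WT and KO p210 lines (26.4% and 24.7% of all genes), and Socs6 in WT lines was not (-0.44, edgeR adjusted p = 0.141). With code and letter as block the calls lost were Socs6 in WT (0.0537) and Pim3 in KO lines (0.0534).

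Directions turned only for genes without a call in the main model. Some of these were called in the first code alone. There Pim2 was lower in p210 in WT lines (-1.13, edgeR adjusted p = 0.0327) and higher in KO lines (1.08, 0.0341). It was also higher in KO than in WT p210 lines (1.57, 0.04), and Socs5 was higher in p210 in KO lines (1.16, 0.026). For p210 in WT lines Socs5 turned to -0.027 with upper quartile and -0.057 with library size scaling, -0.048 with the cell line and -0.015 with the code and letter as block, -0.17 in the first code alone, and -0.13 to 0.24 with 1 library left out. For p210 in KO lines Pim2 turned to -0.13 with limma-voom and -1.08 in the second code alone, Socs6 to 0.24 in the first code alone, and Socs5 to -0.19 and Socs7 to 0.14 in the second; with 1 library left out Socs6 ranged from -0.16 to 0.042 and Socs7 from -0.17 to 0.038. Between KO and WT p210 lines Cish turned to 0.42 and Socs5 to 0.37 in the first code alone, and Socs6 to -0.15, Pim2 to -1.39 and Pim3 to -0.80 in the second. With 1 library left out, Cish ranged there from -0.57 to 0.094, Socs5 from -0.39 to 0.021 and Pim3 from -0.24 to 0.44, and Socs2 between KO and WT untransformed lines from -0.057 to 0.40. For the interaction Socs1 turned to 0.082 in the first code alone, and Cish to -0.67, Socs5 to -0.49, Pim1 to 0.32, Pim2 to -1.05 and Pim3 to -0.11 in the second. Pim1, at -0.015 in the main model, was 0.056 with the cell line and 0.10 with code and letter as replicate block, 0.0034 with the term for merged runs and 0.016 without both libraries that stood apart, and with 1 library left out it ranged from -0.17 to 0.14 and Cish from -0.24 to 0.42.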
